A study of Mus musculus with 12 samples.

Results

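The transcripts described here are the 7 genes *Sh2d1a*, *Slamf1*, *Slamf6*, *Slamf7*, *Cd84*, *Ly9* and *Cd48*, taken by symbol from the 26608 genes listed for each library. *Sh2d1a* encodes SAP, a small adaptor made almost entirely of an SH2 domain. The other 6 encode cell surface receptors of the SLAM family. All 7 were found in all 12 libraries and all 7 passed the filter on low counts, which left 16035 genes for testing.

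SLAM family receptors are immunoglobulin-like proteins of blood cells. Most bind the same receptor on a neighbouring cell, whereas CD48 is anchored to the membrane by a lipid and serves as a ligand for CD2 and for 2B4. When a receptor is engaged, a tyrosine switch motif in its tail recruits SAP, which brings in the kinase FYN, and in the absence of SAP the same motif can recruit phosphatases. T follicular helper (Tfh) cells, the CD4+ T cells that help B cells in germinal centres, need SAP for lasting contact with B cells, and loss of SAP in humans causes X-linked lymphoproliferative disease.

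RNA was sequenced from CD4+ YFP(FOXP3)- T cells, that is, CD4+ T cells not expressing at the time of sorting the YFP reporter that marks FOXP3. The cells came from the spleen and the cervical and inguinal lymph nodes, combined, of mice 14 weeks of age, with 4 libraries per group. All 3 groups carried Foxp3Cre, and the study compared mice with normal *Tet2* and *Tet3* (WT) with mice in which both genes were floxed (Tet2/3 flox/flox), divided by the number of leukocytes in their lymphoid organs into DKO-moderate and DKO-severe. The Cre is driven by *Foxp3*, so the floxed genes are lost in cells that express or once expressed *Foxp3*, and a library of YFP(FOXP3)- cells can mix former regulatory T cells lacking both genes with T cells that never deleted them. Severity was assigned from organ cell numbers and not from RNA.

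Reads on genes ranged from 29254260 to 42133536 per library. *Tet2* did not differ between DKO-severe and WT (log2 fold change 0.22, edgeR adjusted p = 0.234), and *Tet3* was lower in DKO-severe (log2 fold change -1.03, edgeR adjusted p = 0.000859), although reads from exons outside the floxed part are counted too. All 8 general T cell genes checked, including *Cd3e* and *Cd4*, had reads in all groups, with summed levels of 4677 to 5267 CPM in WT, 4595 to 5362 CPM in DKO-moderate and 3470.1 to 4159 CPM in DKO-severe. Of these 8 genes, 1 (*Cd3e*) was higher and 4 (*Cd247*, *Cd5*, *Lat* and *Thy1*) were lower in DKO-severe than in WT (edgeR adjusted p below 0.05). The 4 falls ran from -1.47 to -1.10 on the log2 scale. Of all tested genes 26.6% were higher and 25.9% lower in this comparison. CPM are read counts relative to a library's TMM-scaled total, on a scale where the total is 1000000. Some libraries stood apart in genes of other cell types, as WT 3 had 249 CPM of summed B cell genes against 6.81 to 15.2 CPM in the other WT libraries, DKO-severe 2 had 417 CPM, and DKO-severe 1 had 2268 CPM of summed neutrophil genes. Reads of Y-linked genes were close to 0 in WT 2, DKO-moderate 2, DKO-moderate 4 and DKO-severe 3, so both sexes occurred in every group. The labels do not say more about the origin of a library than its number, so the p-values measure the spread between these libraries.

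The 6 receptor genes lie close together on chromosome 1 (GRCm38, the assembly also called mm10) within 364547 bases. In order along the chromosome they are *Ly9* (chr1:171588624-171607410, minus strand), *Slamf7* (chr1:171632403-171653035, minus strand), *Cd48* (chr1:171682009-171705258, plus strand), *Slamf1* (chr1:171767127-171801184, plus strand), *Cd84* (chr1:171839697-171890718, plus strand) and *Slamf6* (chr1:171917515-171953170, plus strand). *Sh2d1a* lies on the X chromosome (chrX:42502453-42529330, plus strand). *Cd244a*, the gene of 2B4, overlaps *Ly9* on the opposite strand, and the reads were counted by strand, which keeps the pair apart.

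The feature that links the receptors to SAP can be read from their coding sequences. The motif is a threonine, any residue, a tyrosine, any 2 residues, and a valine or isoleucine, and it was searched in 1 reference protein per gene (GENCODE annotation of GRCm38). It was found in 1716 of 21782 proteins, or 7.88%. The coding sequences of all matches in the 6 receptors are shown because the adaptor whose transcript is followed below can dock to this motif. A match alone does not show docking. The codon of the tyrosine is in capitals and the number of the first residue stands after the name.
SLAMF6, residue 293: actgtgTATgcacaagtc
SLAMF6, residue 317: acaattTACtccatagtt
SLAM (SLAMF1), residue 286: actattTATgcccaagta
SLAM (SLAMF1), residue 333: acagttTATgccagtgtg
CD84, residue 263: acagtaTATgctgtagtt
CD84, residue 298: accattTATtcctcagtg
LY9, residue 585: actccaTATgataaagtg
LY9, residue 623: acaatcTACtgctctgtg
SLAMF7, residue 300: acatttTATtccactgtg
CD48, residue 105: acctacTACatgagagtg

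SLAMF6, SLAM, CD84 and LY9 each held 2 matches, and SLAMF7 held 1. The match in CD48 starts at residue 105 of 240 in a protein that has no tail inside the cell, so it is a match of letters only. SAP itself, with 126 residues, held 0. The 2 sites of SLAMF6 lie at chr1:171939437-171939454 and chr1:171941664-171941681, each within 1 coding exon on the plus strand. The 2 sites of LY9 lie at chr1:171593912-171593929 and chr1:171593438-171593455, each within 1 coding exon on the minus strand. SLAMF6 and LY9 are singled out because their transcripts moved in opposite directions in DKO-severe, although both carry a pair of these sites.

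The adaptor and 1 receptor rose in both DKO groups. In DKO-severe against WT, 3 of the 7 genes were higher (*Slamf6*, *Sh2d1a* and *Cd48*), 1 was lower (*Ly9*) and 3 did not pass the test (*Slamf1*, *Slamf7* and *Cd84*), by edgeR's quasi-likelihood test with an adjusted p below 0.05. In this comparison 52.6% of all tested genes passed, 26.6% as higher and 25.9% as lower, so 4 of 7 is close to the share of all genes. With scaling by library size alone the calls over all genes were 5460 higher and 2756 lower, in place of 4270 and 4158. In DKO-moderate against WT, 3 of the 7 were higher (*Slamf6*, *Sh2d1a* and *Slamf1*) and 4 did not pass, where 17.1% of all tested genes passed, 12.3% as higher and 4.74% as lower. The median log2 fold change of the 7 genes was 0.48 in DKO-severe, where that of all tested genes was -0.005, and 0.47 in DKO-moderate, where that of all tested genes was 0. Both comparisons use the same 4 WT libraries and are not independent.

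**Figure D1:**
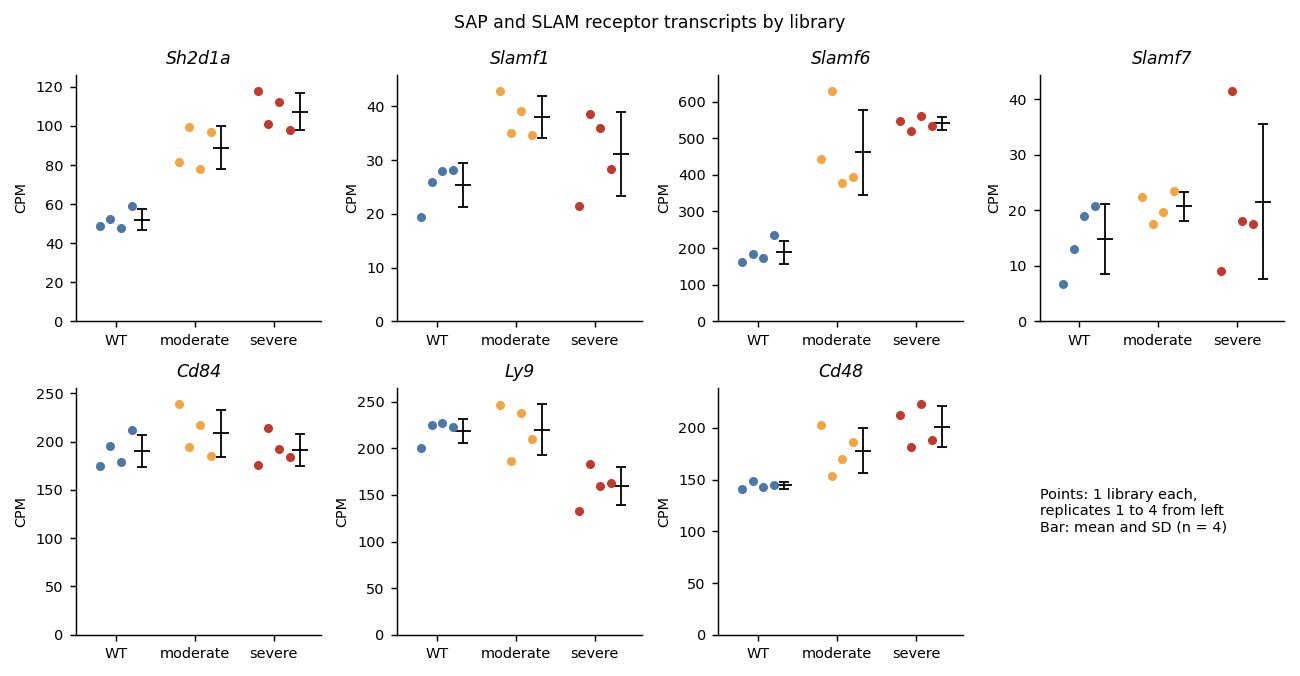
Level of each of the 7 transcripts in every library (CPM, axis from 0), with WT in blue, DKO-moderate in orange and DKO-severe in red, replicates 1 to 4 from left to right within a group, and the mean and SD (n = 4) beside them. *Sh2d1a* and *Slamf6* of all 8 DKO libraries sit above all 4 WT libraries, *Ly9* of the 4 DKO-severe libraries sits below all others, and the *Cd84* ranges overlap throughout.

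*Sh2d1a*, the gene of the adaptor SAP, had 48.6, 52.6, 47.6 and 59.2 CPM in WT libraries 1 to 4. It had 81.5, 99.3, 77.9 and 97.1 CPM in DKO-moderate and 118, 101, 112 and 97.9 CPM in DKO-severe. Every DKO library was above every WT library, whereas the DKO-moderate and DKO-severe ranges met between 97.9 and 99.3 CPM. The level was 2.06-fold that of WT in DKO-severe (log2 fold change 1.04, SE 0.11, edgeR adjusted p = 1.56e-05) and 1.71-fold in DKO-moderate (0.77, SE 0.11, edgeR adjusted p = 0.000675). Between DKO-severe and DKO-moderate the log2 difference was 0.27 (95% interval 0.04 to 0.50, edgeR adjusted p = 0.0861), which did not pass after adjustment over all genes. It passed without DKO-moderate 4 (0.35, edgeR adjusted p = 0.0433) and in 4 of the 11 other settings, namely DESeq2 (0.34, adjusted p = 0.0168), limma voom (0.38, adjusted p = 0.00981), DESeq2's size factors in edgeR (adjusted p = 0.044) and a term for Y-linked genes (0.32, edgeR adjusted p = 0.0434). *Sh2d1a* is X-linked and the libraries come from both sexes. Of the libraries without Y-linked reads, WT 2 (52.6 CPM) and DKO-severe 3 (112 CPM) lay within the range of the others in their group. In DKO-moderate, libraries 2 and 4 without such reads (99.3 and 97.1 CPM) were above libraries 1 and 3 with them (81.5 and 77.9 CPM). The part of sex in this split was not tested. With a term for Y-linked genes in the fit the log2 fold changes against WT were 1.05 in DKO-severe and 0.73 in DKO-moderate.

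*Slamf6* encodes a self-binding receptor of T, B and NK cells that signals through SAP in Tfh cells. It had 162, 183, 174 and 235 CPM in WT, 443, 629.6, 378 and 394 CPM in DKO-moderate, and 546, 520.5, 560.4 and 534 CPM in DKO-severe. The 4 DKO-severe libraries were close to each other (SD 17 CPM), whereas in DKO-moderate 1 library, DKO-moderate 2, was above all DKO-severe libraries and the other 3 were below them. The level was 2.86-fold that of WT in DKO-severe (log2 fold change 1.52, SE 0.16, edgeR adjusted p = 2.02e-05) and 2.44-fold in DKO-moderate (1.29, SE 0.16, edgeR adjusted p = 0.000433). Without DKO-moderate 2 the log2 fold change in DKO-moderate was 1.10 (edgeR adjusted p = 0.000444). The log2 difference between DKO-severe and DKO-moderate was 0.23 (95% interval -0.12 to 0.57, edgeR adjusted p = 0.313), and without DKO-moderate 2 it was 0.41 and passed (edgeR adjusted p = 0.0303).

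*Sh2d1a* and *Slamf6* also differed between DKO and WT with each library left out in turn and under all 11 other settings of the analysis. In the two-sided exact permutation test of CPM both gave p = 0.029 against WT in each DKO group, the smallest value that 4 against 4 libraries can give. The exact test was run for all 7 genes in all 3 comparisons. *Cd48* gave the same p against WT in both DKO groups, *Slamf1* in DKO-moderate against WT, and *Ly9* in DKO-severe against WT and against DKO-moderate. Any gene whose 2 ranges do not overlap gives it. That held for 51.9% of all tested genes in DKO-severe and 24.8% in DKO-moderate against WT, and for 21.3% between the DKO groups.

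*Ly9* encodes LY9 (SLAMF3), a self-binding receptor found on most T and B cells. It had 199.8, 225, 227 and 223 CPM in WT, 246, 186, 238 and 210.4 CPM in DKO-moderate, and 133, 183, 160.0 and 163 CPM in DKO-severe. The DKO-severe libraries were below all WT and all DKO-moderate libraries, with 183 CPM in DKO-severe 2 next to 186 CPM in DKO-moderate 2. The log2 fold change was -0.45 (SE 0.11, edgeR adjusted p = 0.0047) against WT and -0.46 (SE 0.11, edgeR adjusted p = 0.0148) against DKO-moderate. Between DKO-moderate and WT it was 0.01 (95% interval -0.23 to 0.25, edgeR adjusted p = 0.971).

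*Ly9* was the only 1 of the 7 genes that passed between DKO-severe and DKO-moderate, a comparison in which 20.1% of all tested genes passed, 9.41% as higher and 10.7% as lower. The difference from DKO-moderate no longer passed without DKO-severe 3 (-0.42, edgeR adjusted p = 0.0508). Fits that added the level of neutrophil and B cell genes, or of plasma cell genes, as terms did not call it either, and against WT the first gave -0.20 (edgeR adjusted p = 0.483) and the second -0.32 (edgeR adjusted p = 0.342) on the log2 scale. Summed plasma cell genes ran from 59.8 to 157 CPM in WT and from 220.2 to 383 CPM in DKO-severe, and summed neutrophil genes from 0 to 4.34 CPM and from 10.2 to 2268 CPM. Of these lists 5 of 8 plasma cell genes and 9 of 10 neutrophil genes passed as higher in DKO-severe against WT, where 26.6% of all tested genes did. These levels therefore move with the group and cannot be told apart from it. The lowest *Ly9* level was in DKO-severe 1, the library with the highest neutrophil and plasma cell sums. In bulk RNA, fewer cells of a type and less RNA per cell cannot be told apart.

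*Cd48* encodes the lipid-anchored ligand of 2B4 and CD2. It had 140.4, 149, 143 and 145 CPM in WT, a spread of 3.74 CPM (SD), the smallest relative to its mean among the 7 genes. It had 203, 153, 170.2 and 186 CPM in DKO-moderate and 212, 181, 223 and 188 CPM in DKO-severe. All 8 DKO libraries were above all WT libraries, and the DKO ranges overlapped each other. The log2 fold change was 0.48 in DKO-severe (SE 0.10, edgeR adjusted p = 0.00148) and 0.30 in DKO-moderate (95% interval 0.09 to 0.51, edgeR adjusted p = 0.0507), just outside the threshold. The call in DKO-severe was lost when neutrophil and B cell levels were in the fit (0.53, edgeR adjusted p = 0.0674) and when the plasma cell level was (0.61, edgeR adjusted p = 0.0536), although the estimate was no smaller. In DKO-moderate the gene passed without DKO-moderate 2 (0.37, edgeR adjusted p = 0.0256) and without DKO-severe 2 or DKO-severe 3 (edgeR adjusted p = 0.0436 and 0.0467). It also passed there in 5 of the 11 other settings, which were DESeq2 (adjusted p = 0.00629), limma voom (adjusted p = 0.0196), and edgeR with DESeq2's size factors (adjusted p = 0.034), with library size alone (adjusted p = 0.00916) or with another filter on low counts (adjusted p = 0.0471).

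Counted by ranges alone, 4 of the 7 genes (*Sh2d1a*, *Slamf6*, *Cd48* and *Slamf1*) had DKO-moderate libraries that did not overlap the WT libraries, all 4 higher, where 24.8% of all tested genes did not overlap, 14.6% as higher and 10.2% as lower. In DKO-severe against WT, 3 genes did not overlap as higher and 1 as lower, where 51.9% of all tested genes did not overlap, 24.6% as higher and 27.3% as lower. Between the DKO groups 1 gene did not overlap, as lower in DKO-severe, where 21.3% of all tested genes did not overlap, 9.77% as higher and 11.6% as lower.

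*Slamf1* encodes SLAM, the self-binding receptor that gave the family its name. It had 19.4, 25.9, 27.9 and 28.2 CPM in WT, 42.9, 35.1, 39.2 and 34.7 CPM in DKO-moderate, and 21.4, 38.6, 36 and 28.4 CPM in DKO-severe. All DKO-moderate libraries were above all WT libraries, whereas DKO-severe spread over both ranges. The log2 fold change was 0.58 in DKO-moderate (SE 0.18, edgeR adjusted p = 0.041) and 0.30 in DKO-severe (95% interval -0.09 to 0.68, edgeR adjusted p = 0.176), and the difference between the DKO groups, -0.29, did not pass (95% interval -0.67 to 0.10, edgeR adjusted p = 0.255). The call in DKO-moderate held in 2 of 12 fits that left out a library, those without DKO-severe 1 or DKO-severe 2. In the other 10 the log2 fold change stayed between 0.47 and 0.64 and the edgeR adjusted p ran from 0.0508 to 0.115, the highest without WT 1. In DKO-severe the gene passed without DKO-severe 1 (0.44, edgeR adjusted p = 0.0325).

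*Cd84* encodes a self-binding receptor that, like SLAMF6, takes part in contacts between T and B cells. It had 175, 195, 179 and 212 CPM in WT, 239, 194, 217 and 185 CPM in DKO-moderate, and 176, 214, 192 and 184 CPM in DKO-severe. The 3 ranges overlapped. The log2 fold change was 0.01 in DKO-severe (95% interval -0.21 to 0.23, edgeR adjusted p = 0.92) and 0.14 in DKO-moderate (95% interval -0.08 to 0.35, edgeR adjusted p = 0.378).

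*Slamf7* encodes CRACC, a receptor best known from NK and plasma cells, which in NK cells signals through the SAP relative EAT-2. It was the least abundant of the 7 and, in WT and DKO-severe, the one with the largest SD relative to its mean, with 6.81, 13.1, 19 and 20.7 CPM in WT, 22.3, 17.5, 19.6 and 23.4 CPM in DKO-moderate, and 9.09, 41.5, 18 and 17.5 CPM in DKO-severe. The SD was 64.8% of the mean in DKO-severe and 42.3% in WT. The groups overlapped, and the log2 fold change was 0.53 in DKO-severe (95% interval -0.37 to 1.42, edgeR adjusted p = 0.297) and 0.47 in DKO-moderate (95% interval -0.42 to 1.37, edgeR adjusted p = 0.455). DKO-severe 2, with the highest level, also had the highest sum of 8 NK cell genes, 233 CPM, against 65.1 to 81.1 CPM in the other DKO-severe libraries, and the highest sum of B cell genes. The part of these cells in the *Slamf7* level was not tested, and without DKO-severe 2 the log2 fold change was 0.02.

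**Figure D2:**
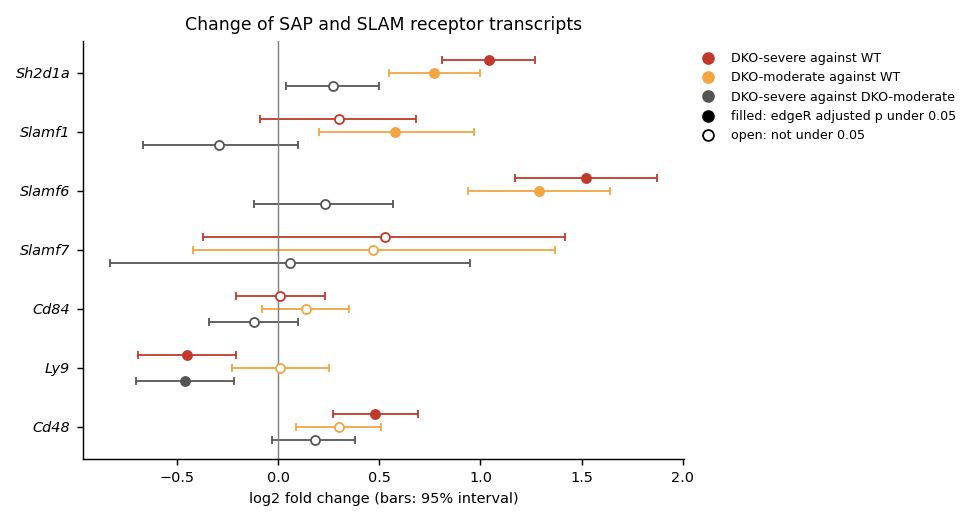
Log2 fold change of each of the 7 transcripts in DKO-severe against WT (red), DKO-moderate against WT (orange) and DKO-severe against DKO-moderate (grey), with 95% intervals from the fit over all 12 libraries; filled points passed at an edgeR adjusted p below 0.05. *Slamf6* and *Sh2d1a* lie farthest to the right in both comparisons with WT, *Ly9* lies left of 0 in both comparisons of DKO-severe, and *Slamf7* has the widest intervals.

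Within groups the libraries ranked differently for different receptors. DKO-severe 1 was highest of its group for *Sh2d1a* and lowest for *Slamf1*, *Slamf7*, *Cd84* and *Ly9*. DKO-moderate 2 was highest of its group for *Sh2d1a* and *Slamf6* and lowest for *Slamf7*, *Ly9* and *Cd48*. The sum of 10 Tfh genes (among them *Cxcr5*, *Pdcd1*, *Bcl6* and *Il21*) was also highest in DKO-moderate 2 within its group, 2149.5 CPM against 981 to 1876 CPM. Over the groups this sum ran from 336 to 552 CPM in WT, from 981 to 2149.5 CPM in DKO-moderate and from 2131 to 3081 CPM in DKO-severe, while 10 naive T cell genes summed to 5984 to 6697, 3134 to 4993 and 2048 to 2705 CPM. In DKO-severe 9 of the 10 Tfh genes were higher than in WT and 9 of the 10 naive T cell genes were lower. In this comparison 26.6% of all tested genes passed as higher and 25.9% as lower. The part of the shift in Tfh and naive T cell genes in the SLAM and SAP levels was not tested.

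The levels of different genes were compared per length, as CPM divided by the length of a gene's exons in kb (RPKM). In WT the order was *Cd48* (121 RPKM), *Ly9* (66.2), *Cd84* (30.3), *Slamf6* (17.4), *Sh2d1a* (9.44), *Slamf1* (4.12) and *Slamf7* (3.26), and of these neighbours only *Slamf1* and *Slamf7* had overlapping ranges. In DKO-moderate *Slamf6* moved up past *Cd84* (42.6 RPKM), with a range that overlapped those of *Ly9* (66.6) and *Cd84* (33.3). In DKO-severe *Slamf6* (49.9 RPKM) and *Ly9* (48.3) had overlapping ranges, behind *Cd48* (169) and ahead of *Cd84* (30.6). *Sh2d1a* kept its place between *Cd84* or *Slamf6* above and *Slamf1* below in all 3 groups, with 16.2 RPKM in DKO-moderate and 19.5 in DKO-severe. *Cd48* led in every group, and *Slamf1* and *Slamf7* came last.

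Shares within a library do not depend on how libraries are scaled to each other, but they do depend on the exon lengths used. Of the summed RPKM of the 6 receptors, *Slamf6* made up 6.63% to 8.54% in WT, 11.8% to 20.5% in DKO-moderate and 15.8% to 16.7% in DKO-severe. *Ly9* made up 26.5% to 28.4%, 19.8% to 24.4% and 13.3% to 18.1% in the same order, with no overlap between any 2 groups. The share of *Cd84* was 11.8% to 13.3% in WT, 9.94% to 11.7% in DKO-moderate and 9.28% to 11.2% in DKO-severe. That of *Cd48* was 48.1% to 52.3%, 45.4% to 52.7% and 49.9% to 58.9% in the same order. So the share of *Slamf6* was larger and that of *Ly9* smaller in DKO. The share of *Cd84* was lower in all 8 DKO libraries than in all WT libraries although its level was not called. A share also falls when other receptors rise, as the level of *Ly9* in DKO-moderate was like that in WT (log2 fold change 0.01).

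The ratio of *Slamf6* to *Ly9*, in RPKM, was 0.234 to 0.322 in WT, 0.485 to 1.04 in DKO-moderate and 0.87 to 1.25 in DKO-severe. *Sh2d1a* relative to the sum of the 5 receptors with the motif in their tail was 0.0708 to 0.0818 in WT, 0.0896 to 0.126 in DKO-moderate and 0.12 to 0.173 in DKO-severe. By these exon lengths, adaptor transcript per receptor transcript was therefore higher in every DKO library than in every WT library. *Sh2d1a* relative to *Slamf6* alone went the other way, with 0.494 to 0.588 in WT, 0.31 to 0.484 in DKO-moderate and 0.361 to 0.427 in DKO-severe. The sum of the 6 receptors was 226 to 254 RPKM in WT, 283 to 336 in DKO-moderate and 294 to 328 in DKO-severe.

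**Figure D3:**
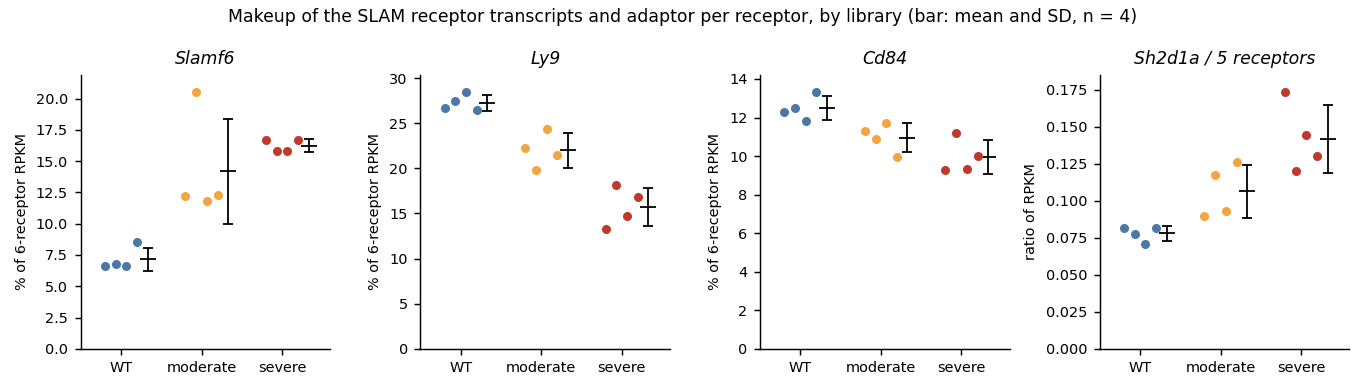
Percent of the summed RPKM of the 6 receptors that came from *Slamf6*, *Ly9* and *Cd84*, and the ratio of *Sh2d1a* to the sum of the 5 receptors with the motif in their tail, in each library of WT (blue), DKO-moderate (orange) and DKO-severe (red), with mean and SD (n = 4) beside the points and axes from 0. The *Slamf6* share is above WT in all 8 DKO libraries, with DKO-moderate 2 at 20.5% apart from its group, and the *Ly9* share falls into 3 separate ranges.

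The other SLAM receptors, SAP relatives and ligands form a list of 6 genes, of which 5 were tested. In DKO-severe against WT 1 was higher (*Sh2d1b1*), 1 was lower (*Cd2*) and 3 did not pass (*Cd244*, *Slamf8* and *Slamf9*), where 52.6% of all tested genes passed. *Sh2d1b1* encodes EAT-2, the SAP relative of NK and myeloid cells. WT libraries 1 to 4 had 0, 0, 29 and 9 reads of it, DKO-moderate had 53, 205, 91 and 267, and DKO-severe had 1001, 382, 1631 and 1557, with no overlap between any 2 groups. In CPM the levels were 0, 0, 0.834 and 0.246 in WT, 1.41, 6.46, 2.26 and 7.07 in DKO-moderate, and 32.5, 11.6, 38.8 and 37.3 in DKO-severe. The edgeR test gave a log2 fold change of 6.76 against WT (SE 0.98, edgeR adjusted p = 0.000149). This size rests on few WT reads, as 2 of the WT libraries had 0 and the others had 29 and 9. Against DKO-moderate the log2 fold change was 2.81 (SE 0.77, edgeR adjusted p = 0.0254), and DKO-moderate against WT gave 3.95 (SE 0.91, edgeR adjusted p = 0.0115). The call between the DKO groups was lost in 5 fits that left out 1 library, namely without DKO-moderate 1 (edgeR adjusted p = 0.0692), DKO-moderate 3 (0.0739), DKO-severe 1 (0.0564), DKO-severe 3 (0.0627) or DKO-severe 4 (0.0616). It was also lost when replicate numbers were blocked (2.81, edgeR adjusted p = 0.0575), with neutrophil and B cell levels in the fit (2.81, edgeR adjusted p = 0.191) and with the plasma cell level, where the difference was 0.81 (edgeR adjusted p = 0.75).

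EAT-2 is known from NK cells, macrophages and dendritic cells, so markers of these cells are given beside it. The 8 NK cell genes summed to 77.6 to 98.3 CPM in WT and 65.1 to 233 CPM in DKO-severe, highest in DKO-severe 2, where *Sh2d1b1* was 11.6 CPM. Summed neutrophil genes were 2268, 834, 23.8 and 10.2 CPM and summed monocyte and macrophage genes 483, 399, 148 and 87.7 CPM in DKO-severe 1 to 4. Dendritic cell genes summed to 11.5 to 18.7 CPM in DKO-severe, 1.54 to 2.91 CPM in DKO-moderate and 0.776 to 10.3 CPM in WT. The Tfh gene sum was 3064, 2131, 3044 and 3081 CPM in DKO-severe 1 to 4, and that of plasma cell genes was 383, 318, 220.2 and 232 CPM. The part of any of these cells in the *Sh2d1b1* level was not tested.

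*Cd2* encodes an adhesion receptor that binds CD48 in mice. It had 348, 354, 355 and 355 CPM in WT, 308, 292, 307 and 366 CPM in DKO-moderate, and 209, 249, 208 and 212 CPM in DKO-severe. DKO-severe was below all other libraries, with a log2 fold change of -0.69 against WT (SE 0.09, edgeR adjusted p = 6.37e-05) and -0.54 against DKO-moderate (SE 0.09, edgeR adjusted p = 0.00414). The call against DKO-moderate was lost with neutrophil and B cell levels in the fit (-0.59, edgeR adjusted p = 0.115). It was lost too with the plasma cell level (-0.60, edgeR adjusted p = 0.187). *Cd48* and its binding partner *Cd2* thus moved in opposite directions in DKO-severe. The other binding partner, 2B4, was at the edge of detection, with 1, 4, 60 and 4 reads of *Cd244* in WT, 4, 37, 4 and 18 in DKO-moderate and 148, 164, 41 and 66 in DKO-severe. Its log2 fold change of 2.62 in DKO-severe did not pass (edgeR adjusted p = 0.0656) in edgeR. It passed with DESeq2 (adjusted p = 0.0257), with limma voom (3.67, adjusted p = 0.0026) and without WT 3 (5.07, edgeR adjusted p = 0.00262), the WT library with the most B cell and monocyte reads.

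*Fyn*, the kinase that SAP recruits, had 527, 601, 538 and 614 CPM in WT, 660.4, 823, 683 and 650.0 CPM in DKO-moderate, and 598, 722, 669 and 719 CPM in DKO-severe. Its DKO-moderate range lay above that of WT and its DKO-severe range overlapped it. The log2 fold change was 0.30 in DKO-moderate (edgeR adjusted p = 0.0548) and 0.25 in DKO-severe (edgeR adjusted p = 0.0533), and neither passed in edgeR. DESeq2 called it in DKO-severe (0.33, adjusted p = 0.00494) and in DKO-moderate (0.32, adjusted p = 0.0166), and of the 11 other settings 7 called it in DKO-severe and 5 in DKO-moderate. In DKO-severe *Fyn* also passed without DKO-moderate 2 (0.25, edgeR adjusted p = 0.0251), DKO-moderate 4 (0.28, edgeR adjusted p = 0.03) or DKO-severe 1 (0.30, edgeR adjusted p = 0.0323).

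Among 12 signalling partners of SAP and the SLAM receptors, a list that includes *Fyn*, 1 was higher in DKO-severe than in WT (*Malt1*), 6 were lower (among them *Lck*, *Prkcq*, *Vav1*, *Plcg1* and *Pak1*) and 5 did not pass. The median log2 fold change of the list was -0.32. With 7 of 12 genes called, the list stands near the 52.6% of all tested genes. Of the 12, 6 were lower and 1 was higher, where 25.9% of all tested genes were lower and 26.6% higher. The direction of the list was not tested. The split over all genes depends on scaling, with 5460 higher and 2756 lower by library size alone. *Malt1*, a protease of the pathway to NF-kappaB, rose by 0.86 on the log2 scale (SE 0.21, edgeR adjusted p = 0.00532), a call lost with neutrophil and B cell levels in the fit (0.50, edgeR adjusted p = 0.371) or the plasma cell level (0.29, edgeR adjusted p = 0.67). *Pak1*, a kinase linked to cell shape, had the largest fall (-2.19, SE 0.32, edgeR adjusted p = 0.000167), from a mean of 8.72 CPM in WT to 1.91 CPM. In DKO-moderate 1 of the 12 was higher (*Malt1*, 0.76, edgeR adjusted p = 0.0302) and 1 lower, where 17.1% of all tested genes passed. Between DKO-severe and DKO-moderate 5 were lower and 7 did not pass, where 20.1% of all tested genes passed, 10.7% as lower. The *Malt1* call in DKO-moderate was lost without WT 1, WT 2, WT 4 or DKO-moderate 4 (edgeR adjusted p from 0.0507 to 0.0866) and in 5 of the 11 other settings, among them the replicate block (0.70, edgeR adjusted p = 0.0511), and DKO-moderate 2 had the highest level, 543 CPM against 227 to 312 CPM in the rest of its group.

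**Figure D4:**
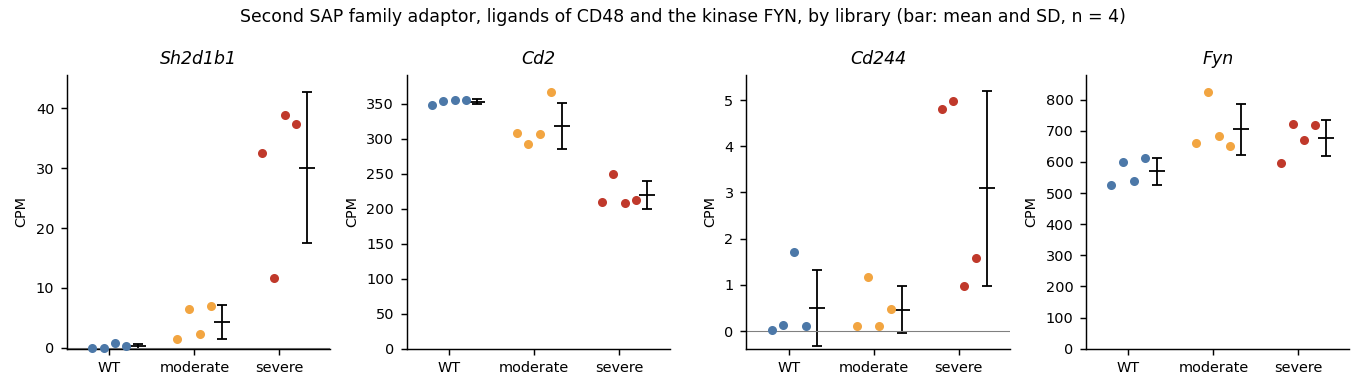
Level (CPM) of *Sh2d1b1*, *Cd2*, *Cd244* and *Fyn* in each library of WT (blue), DKO-moderate (orange) and DKO-severe (red), with mean and SD (n = 4) beside the points; the lower SD bars of *Cd244* run past 0 because its spread is wider than its mean. *Sh2d1b1* separates the 3 groups, *Cd2* is lowest in the 4 DKO-severe libraries, and *Cd244* stays below 5 CPM.

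A further list holds 7 phosphatases and inhibitory partners. In DKO-severe against WT 3 were higher (*Ptpn11*, *Inpp5d* and *Dok1*), 1 was lower (*Csk*) and 3 did not pass, with a median log2 fold change of 0.22, and 4 of 7 called is near the 52.6% of all tested genes. *Ptpn11* encodes SHP-2, a phosphatase that binds switch motifs, and rose by 0.62 in DKO-severe (SE 0.19, edgeR adjusted p = 0.0153) and by 0.67 in DKO-moderate (SE 0.19, edgeR adjusted p = 0.0296) on the log2 scale. The call in DKO-severe was lost with neutrophil and B cell levels in the fit (0.53, edgeR adjusted p = 0.322) or the plasma cell level (0.47, edgeR adjusted p = 0.46). The call in DKO-moderate was lost in 4 of the 11 other settings and without WT 1, WT 2 or WT 3 (edgeR adjusted p from 0.0626 to 0.0867). *Csk*, the kinase that holds SRC family kinases inactive, fell by 0.29 in DKO-severe (SE 0.09, edgeR adjusted p = 0.0162), a call lost without DKO-severe 3 (edgeR adjusted p = 0.0708) or DKO-severe 4 (edgeR adjusted p = 0.0755). It was lost too with DESeq2's size factors (-0.21, edgeR adjusted p = 0.0606), with library size alone (-0.10, edgeR adjusted p = 0.29), and with neutrophil and B cell levels or the plasma cell level in the fit (-0.32 and -0.27, edgeR adjusted p = 0.209 and 0.341). In DKO-moderate 2 of the 7 were higher and 5 did not pass (17.1% of all tested genes passed), and between the DKO groups 1 was higher and 1 lower (20.1% passed).

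The genes around the receptors on chromosome 1 were examined to see whether the cluster moved with its surroundings. Within the span of the 6 genes and 500 kb on either side, 31 other genes were tested. In DKO-severe against WT 4 were higher, 11 were lower and 16 did not pass, with a median log2 fold change of -0.19. In number, 15 of 31 called is near the 52.6% of all tested genes, of which 26.6% passed as higher and 25.9% as lower. In DKO-moderate against WT 1 was higher and 30 did not pass, where 17.1% of all tested genes passed. Between DKO-severe and DKO-moderate 2 were higher, 1 was lower and 28 did not pass, where 20.1% passed. The largest rise in DKO-severe against WT was that of *F11r*, the gene of a junction adhesion molecule (log2 fold change 3.37, SE 0.62, edgeR adjusted p = 0.000741), from 0.114 to 1.23 CPM. Receptors that rose, fell and were not called lay near each other, as *Ly9* is followed by *Slamf7* and *Cd48*, and *Cd84* by *Slamf6*. Between *Cd84* and *Slamf6* lies another tested gene, which was called lower in DKO-severe than in WT.

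**Figure D5:**
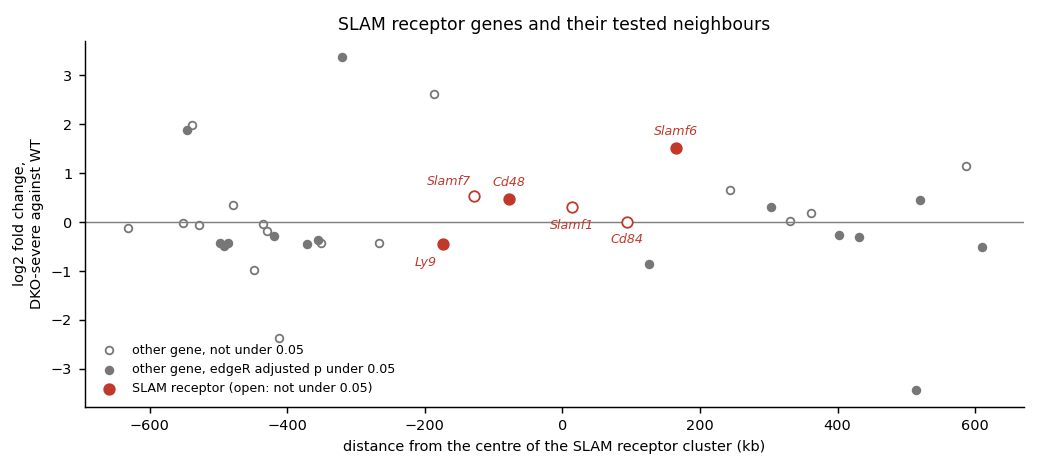
Change in DKO-severe relative to WT (log2 fold change) of the 6 receptor genes (red) and of the 31 tested genes around them (grey), against the distance of each gene's middle from the centre of the receptor cluster in kb; filled points passed at an edgeR adjusted p below 0.05. *Slamf6* at 1.52 and *Ly9* at -0.45 lie at opposite ends of the cluster, and most called neighbours lie below 0.

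To find transcripts with the most similar pattern, centred log2 CPM were compared over all 12 libraries with 9996 genes of at least 5 CPM on average, by the root mean square (RMS) difference. The closest genes to *Sh2d1a* were *Ei24* (RMS difference 0.08), *Tor3a* (0.10) and *3830406C13Rik* (0.10), where the RMS of *Sh2d1a* about its own mean was 0.46. The closest to *Slamf6* were *Ntng2* (0.11), *Pcyox1l* (0.13) and *Mettl7a1* (0.15), where that of *Slamf6* was 0.70. The closest to *Slamf7* were *Nedd4* (0.18), *Tbx21* (0.29) and *Zcchc18* (0.31), against 0.63. These distances describe the libraries and carry no test, and a gene that varies little is close to many others.

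For *Slamf1* the closest were *Cd4* (0.14), *Gimap7* (0.18) and *Zfp827* (0.18), for *Ly9* *Mon1a* (0.07), *Zfp672* (0.08) and *Zc3h11a* (0.08), for *Cd48* *Tmed5*, *Vcp* and *Tmem167* (0.10 each), and for *Cd84* *Zfp160* (0.07), *Rbm7* (0.08) and *Ap4m1* (0.08). None of the 7 genes was among the closest of another. Among the 7 themselves the most similar pairs were *Cd84* and *Ly9* (RMS difference 0.22) and *Cd84* and *Cd48* (0.24), and *Sh2d1a* was nearest to *Slamf6* (0.28). The least similar pair was *Slamf6* and *Ly9* (0.87).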

How the data were processed

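The deposited values are raw read counts per gene, 1 file per library. Per the study's methods, the authors made strand-specific libraries, mapped them with STAR 2.7.11 to mm10 keeping uniquely placed reads, and counted them with HTSeq in reverse-stranded mode, so reads shared by near-identical genes are left out and isoforms are pooled. The annotation they used is not given in the sources used here. Records not assigned to a gene (18.53% to 23.73% of a library) were left out.

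A gene was tested if any group had at least 10 reads of it in its 4 libraries together (16035 genes). The 3 groups were fitted together in edgeR 4.0.16 (R 4.3.3) with TMM scaling and the quasi-likelihood F test, with p-values adjusted by Benjamini-Hochberg across all 16035 genes and called below 0.05. The study used DESeq2, which was run as an alternative (DESeq2 1.42.0), as was voom with weights for sample quality from limma 3.58.1. Log2 CPM used a prior count of 2. The SE is the log2 fold change over the square root of F, and 95% intervals use the degrees of freedom of the fit. RPKM divide CPM by the length of all exons of a gene in the GENCODE annotation of GRCm38, which also gave positions and coding sequences. Exact permutation tests were two-sided. Exact tests used scipy 1.17.1 and figures matplotlib 3.10.9 (Python 3.11.15). The fits were tested on simulated data.

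The named genes are the 7, *Fyn*, *Cd244*, *Cd2*, the largest rise and fall past the threshold in DKO-severe against WT in each other list and among the neighbours, and the 3 closest genes to each of the 7. Others in a list are named to account for its counts. Results that rest on some of the genes this rule names are left out. The 7 genes, the gene lists and the alternatives were chosen with earlier results of these data known. No library was a copy of another of its group (chi-square per degree of freedom at least 21.6). Libraries sharing a number had residual correlations (-0.272 to 0.208) spread as widely around 0 as those with different numbers (-0.318 to 0.303), so the numbers were not treated as pairs. Depth limits the members little, as the lowest count of any of them was 237 reads.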

Additional observations from a re-analysis of the deposited data

Results flagged for a closer look

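In groups of 4, a library was singled out when its gap to the nearest other library was too large a part of the group's range by Dixon's test at the 95% level, which chance gives in about 1 in 20 groups. Of 78 groups examined for the 7 genes, the other named genes and the receptor ratios, 8 had such a library. *Ly9* in WT was lowest in WT 1 with 199.8 CPM (223 to 227 CPM in the others). *Cd2* in DKO-severe was highest in DKO-severe 2 with 249 CPM (208 to 212 CPM). *Pak1* in WT was lowest in WT 4 with 6.81 CPM (9.2 to 9.6 CPM), and *Cd244* in WT was highest in WT 3 with 1.72 CPM (0.0287 to 0.129 CPM). The *Slamf6* share of the receptor RPKM was highest in WT 4 with 8.54% (6.63% to 6.8%) and in DKO-moderate 2 with 20.5% (11.8% to 12.3%), and the ratio of *Slamf6* to *Ly9* was highest in the same libraries with 0.322 (0.234 to 0.249) and 1.04 (0.485 to 0.572). All WT values of both *Slamf6* measures remained below all DKO values.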

How the results depend on the processing

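*Sh2d1a* and *Slamf6* kept their direction and passed the threshold against WT in both DKO groups under all 11 other settings and without each library in turn. The number of the 7 genes called in DKO-severe against WT was 4, and it was 2 with terms for neutrophil and B cell genes or for plasma cell genes and 4 to 5 with a library left out. These terms move with the groups, and over all genes they lowered the calls from 8428 to 2974 and 1571. In DKO-moderate against WT the number was 3. It was 4, with *Cd48* added, in DESeq2, limma voom, filterByExpr and both other scalings, 2, without *Slamf1*, with the Y-linked or plasma cell term, and 2 to 4 with a library left out. Between the DKO groups it was 1, where it was 3 with DESeq2, 2 with limma voom, DESeq2's size factors, library size alone or a term for Y-linked genes, and 0 with terms for neutrophil and B cell genes or for plasma cell genes, which left 86 and 0 of 3217 calls over all genes (limma voom made 6126). With a library left out it ran from 0 (without DKO-severe 3) to 2 (without DKO-moderate 2 or DKO-moderate 4). The causes were not tested. With the replicate number as a block, although the numbers do not pair the samples, the counts were 4, 3 and 1, and calls over all genes 7794, 2201 and 2321.

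Library size alone moved the all-gene median in DKO-severe against WT to 0.178 (log2) and changed the calls over all genes from 4270 higher and 4158 lower to 5460 and 2756. Between the DKO groups the 1509 higher and 1708 lower calls became 1886 and 1021 with library size alone, 1823 and 1237 with DESeq2's size factors and 2487 and 1664 with DESeq2. Without WT 1 or WT 2, DKO-moderate against WT gave 1616 and 1707 calls against 2734.

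The direction turned only in results that were not called. *Cd84* in DKO-severe against WT gave -0.02 on the log2 scale with limma voom and -0.03 to 0.07 with a library left out, and against DKO-moderate 0.08 with the plasma cell term. *Ly9* in DKO-moderate against WT gave -0.05 to 0.08 with a library left out. *Slamf7* in DKO-severe against DKO-moderate gave -0.22 with limma voom and with the plasma cell term, -0.13 with the block, -0.003 with the Y-linked term and -0.44 to 0.31 with a library left out. *Slamf1* in the same comparison gave 0.02 with the neutrophil and B cell terms. *Cd244* in DKO-severe against WT gave -1.54 with the plasma cell term.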
